A study of Mus musculus with 39 samples.

Results

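The genes described here are 7 genes whose products Paneth cells release against microbes, namely Lyz1, Mmp7, Ang4, Itln1, Defa17, Defa22 and Defa24. They were chosen by name, with earlier results of these data known, and all 7 were found among the 25219 genes of the deposited table. Their values were followed over 39 single cells, each captured on its own and made into its own library. The cells were tdTomato-positive, Sca1-negative crypt epithelial cells of mice bearing Lgr5-EGFP-Ires-CreERT2:Rosa-lsl-tdTomato. In this strain, Cre recombinase fused to an estrogen receptor is driven from the Lgr5 locus, so that tamoxifen switches on tdTomato for good in Lgr5-expressing cells and in the cells they give rise to. Tamoxifen was given 24 h before total body irradiation with 10 Gy, and the cells were sorted 48 h after it. The labels name a single group, with no unirradiated cells, and no animal for any cell. The 39 cells were therefore read as 1 biological sample, an SD is a spread over cells, and no test between cells was made. Cells are called by the number in their sample titles.

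Paneth cells sit at the base of small intestinal crypts, between the stem cells, and secrete granules of antimicrobial proteins into the crypt lumen. Alpha-defensins are short cationic peptides that disrupt microbial membranes. In the mouse they are made as inactive precursors from a cluster of near-identical genes, and matrilysin, the metalloprotease encoded by Mmp7, cuts them into their active form. Lyz1 encodes the Paneth cell lysozyme, which digests bacterial cell walls, Ang4 a ribonuclease with bactericidal activity, and Itln1 an intelectin that binds microbial sugars and is also made by goblet cells.

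The 3 alpha-defensin members are small genes of 2 exons on the plus strand of chromosome 8 (mm10/GRCm38). Defa22 lies at chr8:21162277-21163249, Defa17 at chr8:21655767-21656736 and Defa24 at chr8:21734494-21735471. In the GENCODE M21 annotation of GRCm38, each has 279 coding bases before the stop codon, and the last 107 of these, in the second exon, encode most of the mature peptide. These last coding stretches are shown because they tell how far reads of the members can be told apart. Capitals mark the 42 positions at which at least 1 of the 3 genes differs, and the Defa24 stretch spans chr8:21735268-21735374, that of Defa17 chr8:21656532-21656638 and that of Defa22 chr8:21163046-21163152.
Defa24: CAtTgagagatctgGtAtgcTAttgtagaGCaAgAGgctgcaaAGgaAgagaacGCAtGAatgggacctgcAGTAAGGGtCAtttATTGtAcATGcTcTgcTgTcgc
Defa17: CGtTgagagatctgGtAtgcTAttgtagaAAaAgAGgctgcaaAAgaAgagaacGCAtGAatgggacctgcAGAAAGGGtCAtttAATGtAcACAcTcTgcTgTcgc
Defa22: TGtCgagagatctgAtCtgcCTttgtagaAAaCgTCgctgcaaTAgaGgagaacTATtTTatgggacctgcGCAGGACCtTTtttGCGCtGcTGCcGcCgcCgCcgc

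Defa24 and Defa17 differed at 12 of the 279 coding bases (95.7% identity), 8 of them in the stretch shown, whereas Defa24 and Defa22 differed at 58 (79.2% identity). Defa17 had the same coding sequence as Defa3, another gene of the cluster, with 0 differences over 279 bases. Of the 50-base windows of the Defa17 transcript, 92% were also found in Defa3. For Defa22, 74.9% of windows occurred in another gene, chiefly in Defa21 (72.7%), from which its coding sequence differed at 2 bases. Defa24 had 28.1% of windows shared with genes of that annotation and a longest run of 84 bases in common with Defa30, the gene it shared most with. The 4 other members lie on different chromosomes, Itln1 at chr1:171518124-171535294, Mmp7 at chr9:7692111-7699416, Lyz1 at chr10:117287795-117292868 and Ang4 at chr14:51763892-51773590. They shared little sequence with other genes, with between 1.01% of windows shared for Itln1 and 16.1% for Lyz1, the latter with its paralog Lyz2. In the deposited counts, which were estimated, 33 of the 39 Defa24 values above 0, 24 of the 36 Defa17 values and 11 of the 15 Defa22 values were not whole numbers (within 0.001), against 2 of 33 for Lyz1 and 0 of 33 for Itln1. The level of a single alpha-defensin gene is therefore uncertain to the extent that its reads were divided with its copies.

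The reads assigned to genes in a cell numbered from 398418 to 3903971 estimated counts (median 3089188), and between 2287 and 5779 genes reached 1 FPKM (fragments divided by transcript length and by the cell's total). Detection of a gene in a cell means a value of at least 1 FPKM. The epithelial markers Epcam, Krt8 and Krt18 were detected in 39 of 39 cells. Of 7 immune markers, 6 were detected in no cell, the exception being Lyz2 with 1.58 FPKM in cell 63, and all 5 stromal and endothelial markers were at 0 in every cell. Ly6a, which encodes the Sca1 used to exclude cells in the sort, was detected in 4 cells.

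RNA of the alpha-defensins was present in nearly every cell. Defa24 was detected in 38 of 39 cells (97.4%, exact 95% interval 86.5 to 99.9%) and Defa17 in 36 (92.3%, 79.1 to 98.4%). These intervals, by the Clopper-Pearson method, cover counting error of cells alone. Of the 8656 genes detected in at least 5 cells, 10.4% were detected in 36 cells or more. Lyz1 was detected in 28 cells (71.8%, 55.1 to 85.0%) and Itln1 in 27 (69.2%, 52.4 to 83%). The remaining members were seen in a minority of cells, with Defa22 in 15 (38.5%, 23.4 to 55.4%), Ang4 in 13 (33.3%, 19.1 to 50.2%) and Mmp7 in 9 (23.1%, 11.1 to 39.3%). No well without a cell was among the samples analysed here, so the level that RNA from outside a cell could give was not measured.

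Detected did not mean abundant, and the levels of each member varied widely over the cells. Defa24 ran from 0.690 FPKM in cell 36 through a median of 159 to 8338 FPKM in cell 56. It reached 10 FPKM in 36 cells, 100 FPKM in 26 cells and 1000 FPKM in 6 cells. Defa17 ran from 0 in 3 cells through a median of 35.6 to 3331 FPKM, again in cell 56, and reached 100 FPKM in 11 cells. Both genes were thus present at a moderate level in most cells, and cell 56 stood far above the others for both. The cell with the next highest level was cell 9 for both genes, at 3305 FPKM of Defa24 and 967 FPKM of Defa17. Cell 9 was also the shallowest, and its Defa24 level came from 1651 estimated counts against 8389.7 in cell 56.

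Defa22 differed from Defa17 and Defa24 in the cells where these were highest. It was at 0 in 24 cells, including cells 9 and 56, and its highest levels of 319.9, 308 and 277 FPKM were in cells 93, 92 and 86. In these 3 cells Defa24 was at 1265, 1229 and 1397 FPKM. Thus Defa22 was listed at 0 in the pair of cells with the most Defa24 RNA and was high in those that came next. Over all 39 cells, Defa22 had r = 0.44 with Defa17 and 0.40 with Defa24, and without cells 9 and 56 these coefficients were 0.62 and 0.54.

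Itln1, the intelectin, had a median of 14 FPKM and reached 100 FPKM in 10 cells, with its highest levels of 892, 623 and 551 FPKM in cells 63, 22 and 56. Lyz1, the lysozyme, had a median of 3.72 FPKM and exceeded 100 FPKM in 4 cells, with 1498 FPKM in cell 63, 185 in cell 56, 184 in cell 5 and 154 in cell 86. Lyz1 was therefore detected widely but at a low level outside a few cells. Mmp7, whose product activates alpha-defensins, was at 0 in 28 cells and stood at 1471 FPKM in cell 63, 456 in cell 16 and 151 in cell 56. Ang4 was at 0 in 23 cells and never passed 118 FPKM, its level in cell 56, followed by 103 in cell 95 and 99.2 in the cell with the highest number. Ang4 was the member with the narrowest range.

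On the log2(FPKM + 1) scale the order of mean levels, all with n = 39 cells, was Defa24 (7.4 ± 2.52 SD), Defa17 (5.07 ± 2.64), Itln1 (4.0 ± 3.21), Lyz1 (2.81 ± 2.56), Defa22 (2.09 ± 3.02), Ang4 (1.43 ± 2.23) and Mmp7 (1.31 ± 2.68). FPKM is divided by transcript length, which puts the genes on a common scale, but the levels of the alpha-defensins also depend on how reads were divided with their copies. Every step between neighbours in this order was smaller than the SD over cells. Within cells, Defa24 was higher than Defa17 in 36 of 39 cells, and Defa17 was higher than Itln1 in 26. Itln1 was higher than Lyz1 in 23 cells and lower in 14.

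**Figure D1:**
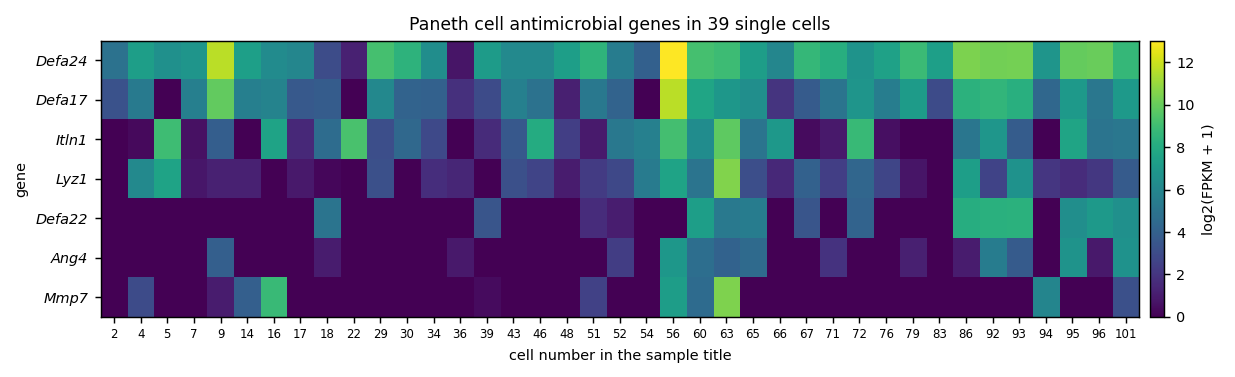
Level of each member (rows, ordered by mean log2 level) in each of the 39 cells (columns, by cell number), as log2(FPKM + 1), from 0 in dark purple to the highest level in yellow. Defa24 and Defa17 are coloured in nearly every column, Mmp7 and Ang4 in few, and cells 56 and 63 stand out over several rows.

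A few cells held a large part of the RNA of some members. Cell 63 held 67% of the Mmp7 level summed over all cells and 62.9% of that of Lyz1, and cell 56 held 48.7% for Defa17 and 35.4% for Defa24. Among genes detected in the same number of cells as each of these members, as large a share in the highest cell was found for 3.98% (as for Mmp7), 1.24% (Lyz1), 0.625% (Defa17) and 1.30% (Defa24), the member itself included. The other members were not as concentrated in a cell. The highest cell held 20.8% for Itln1, 25.4% for Ang4 and 21.1% for Defa22, and as large a share was found for 17.3%, 60.6% and 72.4% of genes detected in as many cells. The 3 highest cells together held 94.7% of the Mmp7 level, 78.4% of that of Lyz1, 68.9% for Ang4 and 68.4% for Defa17. They held 59.7% for Defa22, 55.4% for Defa24 and 48.2% for Itln1, so Ang4 and Defa22 were above Defa24 by this share.

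Very high values, taken as 1000 FPKM or more, were found for 4 of the 7 members, against 3.58% of the 8656 genes detected in at least 5 cells. They occurred in 7 cells. Defa24 was very high in cells 9, 56, 86, 92, 93 and 96, Defa17 in cell 56, and Lyz1 and Mmp7 in cell 63. In cell 56, Defa24 was the gene with the highest FPKM of all, and in cell 9 it ranked at place 3. In cell 63, Lyz1 and Mmp7 ranked at places 66 and 69. The 7 members together made up 2.75% of all FPKM in cell 56, 2.39% in cell 9 and 0.731% in cell 63, while the median over cells was 0.0679% and the lowest value 0.00119%, in cell 36. With the other alpha-defensin genes named Defa, the share in cell 56 was 5.99%.

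Members were also present together in the same cell to different extents. The number of members detected per cell had a median of 4 and ran from 2, in 5 cells (2, 7, 22, 36 and 83), to 7, in 3 cells (60, 63 and the cell with the highest number). No cell lacked all members, and each of the 39 cells had at least 1 alpha-defensin member. At least 1 of the 4 members that are not alpha-defensins was detected in 36 cells, and all 4 in 4 cells. The cells with every member did not all have high levels. Cell 60 ranged from 22.2 FPKM for Mmp7 to 591 for Defa24, and the cell with the highest number from 8.08 for Mmp7 to 406 for Defa24. Cell 56, with the highest summed level, lacked Defa22.

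The members agreed over cells to a moderate degree. Pearson r of log2(FPKM + 1) over the 39 cells was above 0 for all 21 pairs, with a median of 0.36, against a median of 0.04 over all pairs of the 8656 genes, of which 3.20% had a higher r than the members' median. These coefficients are descriptions over cells of 1 sample, and 3 of the 21 pairs join alpha-defensins, of which Defa17 and Defa24 share 50-base windows. Without these 3, the median over 18 pairs was also 0.36. The closest pair was Defa17 and Defa24 (r = 0.78, Spearman rho = 0.75), detected together in 35 cells. Ang4 followed the alpha-defensins, with r = 0.66 with Defa17, 0.58 with Defa22 and 0.54 with Defa24. None of their 50-base windows occurs in Ang4. With the number in the sample title, r was 0.44 for Ang4, 0.32 for Defa17, 0.58 for Defa22 and 0.41 for Defa24. The part of this number in their agreement was not tested. All 13 cells with Ang4 and all 9 with Mmp7 had both Defa17 and Defa24, as did 35 of the 39 cells, so these overlaps are near the share over all cells.

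Other pairs agreed little. Itln1 and Defa24 had r = 0.10 and Itln1 and Defa17 r = 0.15. Cell 22 held 623 FPKM of Itln1 with 1.31 FPKM of Defa24 and none of the 5 remaining members, and cell 5 held 499 FPKM of Itln1 with 184 of Lyz1 and 0 of Defa17. Mmp7 and Defa22 had r = 0.03, with 4 cells holding both, 5 holding Mmp7 alone and 11 Defa22 alone. Lyz1 was intermediate, with r between 0.33 and 0.42 with every other member. With Mmp7, its r was 0.38, which was 0.14 without cell 63, and rho was 0.15. Cell 16 held 456 FPKM of Mmp7 and 0 of Lyz1. The mean log2 level of the 7 members had r = -0.19 with the number of genes detected and -0.07 with log2 depth over the 39 cells. Single members differed in this. Defa24 had r = -0.44 and Defa17 r = -0.30 with the number of genes detected. With log2 depth, r was -0.27 for Defa24, -0.36 for Defa17 and 0.27 for Defa22.

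**Figure D2:**
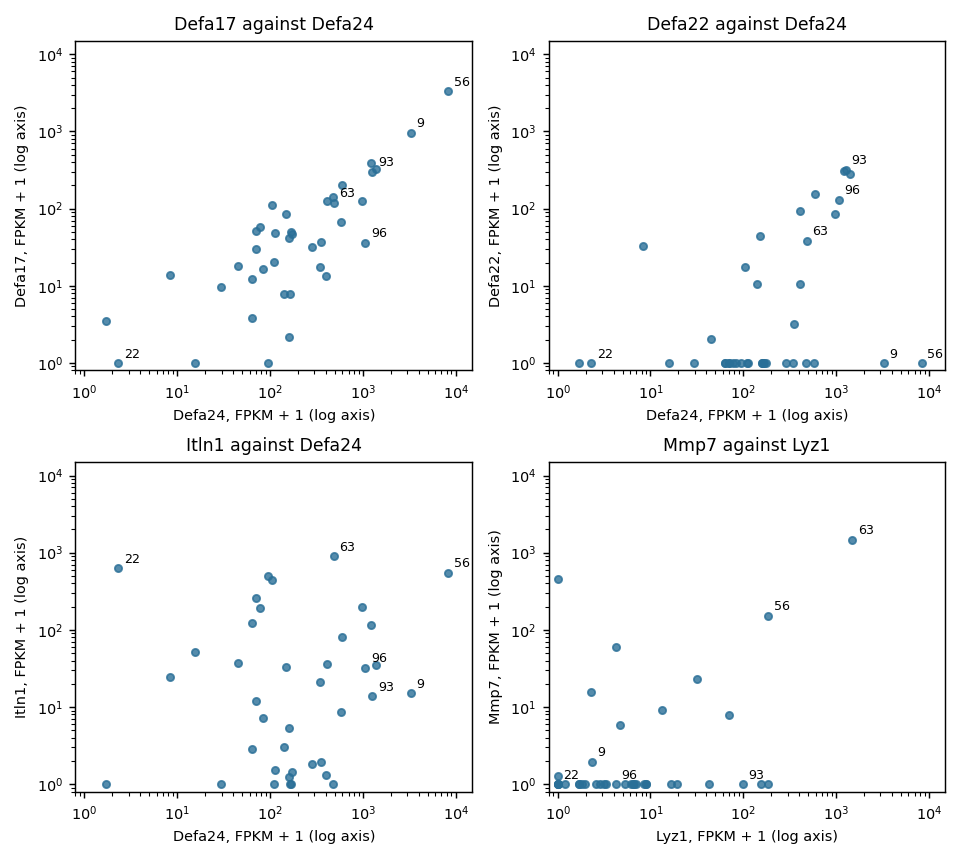
Levels of pairs of members in the 39 cells (points), as FPKM + 1 on log axes, with some cells marked by number. Defa17 rises with Defa24 (r = 0.78), Defa22 is at 0 in cells 9 and 56, Itln1 spreads widely at any Defa24 level (r = 0.10), and Mmp7 is at 0 in 28 cells.

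The other alpha-defensin genes of the cluster fell into different patterns. Of 17 further rows whose names begin with Defa, 14 were detected in a cell and 10 in at least 5 cells. The stretch from Defa21 to Defa24, chr8:21025545-21735471, held 37 rows of the table, 29 of them detected in at least 5 cells. Defa3 followed Defa17 almost exactly (r = 0.99). Its share of the counts of both genes lay between 39.1% and 54.5% in the 33 cells with 10 or more such counts, with a median of 45.4%. Since both have the same coding sequence, their reads could be divided between them by the counting. Defa6 followed Defa24 (r = 0.90), and its row, chr8:21734537-21735377, lies within that of Defa24. Defa23, at 4964 FPKM in cell 56, had r = 0.75 with Defa24.

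Another set of genes followed Defa22. Defa21 had r = 0.94 with Defa22, Defa2 0.91, Gm21002 0.91, Defa20 0.88 and Gm15308 0.87. These are not independent, since Defa2 and Defa20 had r = 0.98 with each other and may divide reads. Defa2, Defa20, Gm21002 and Gm15308 were at 0 in cells 9 and 56, and Defa21 was at 0 in cell 9 and 3.98 FPKM in cell 56. In cell 93, by contrast, all were high, with 366 FPKM for Defa21, 294 for Defa2, 382 for Defa20, 208 for Gm21002 and 305 for Gm15308. Of the 15 cells with Defa22, 15 also had Defa20, 14 Defa2 and 13 Gm15308, and of the 24 cells without it, 5, 5 and 2 had these genes. Defa21 shares most of its sequence with Defa22. The longest run of bases that Defa22 has in common with Defa2, Defa20 or Gm15308 (Defa32 in RefSeq) is 35 bases, and none of its 50-base windows occurs in them. How the counting divided reads with mismatches among these genes is not given in the sources used here, and its part in the agreement was not tested. With Defa24, the genes of this set had lower coefficients, between 0.29 and 0.46 for Defa21, Defa2, Defa20 and Gm15308.

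**Figure D3:**
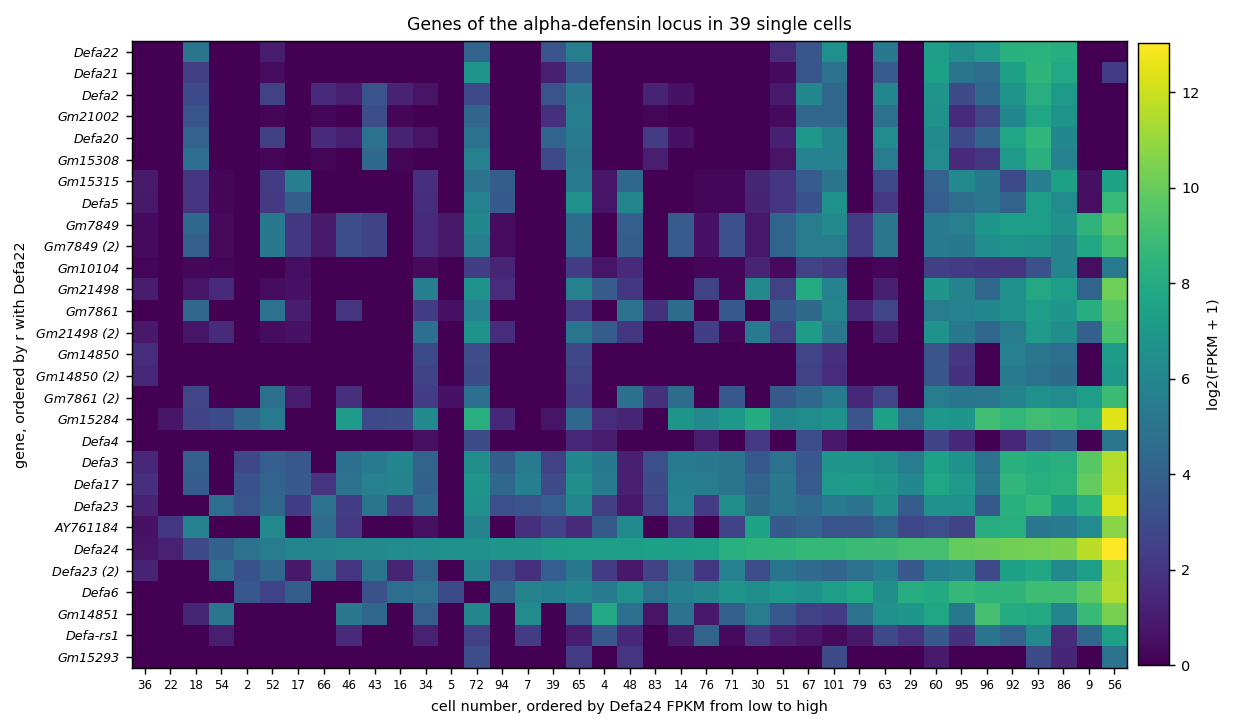
Levels of the 29 genes of the alpha-defensin locus detected in at least 5 cells (rows, ordered by r with Defa22) in the 39 cells (columns, ordered by Defa24 level), as log2(FPKM + 1). The 6 upper rows, from Defa22 to Gm15308, are coloured in many of the same cells, though not in all, and are dark or nearly so in cells 9 and 56 at the right, whereas most lower rows are brightest in cell 56.

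Since these genes were seen in largely overlapping sets of cells, the bases before their start sites are shown, together with those of Defa23, which was high in cell 56. RefSeq promoters (GRCm38.p6) were at hand for 5 of the 7 members, not for Defa17 and Defa24. The 150 bases before the start are given for Defa22 (chr8:21162127-21162276), Defa2 (chr8:21378367-21378516) and Defa23 (chr8:21054890-21055039), all on the plus strand. Capitals mark TATAAA, the TATA box, and TCAAAG, which is CTTTGA on the other strand, the core to which the Wnt-pathway factors of the TCF/LEF family bind.
Defa22: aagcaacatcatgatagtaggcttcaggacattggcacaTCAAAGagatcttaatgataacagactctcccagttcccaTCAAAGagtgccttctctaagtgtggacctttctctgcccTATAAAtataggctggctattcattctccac
Defa2: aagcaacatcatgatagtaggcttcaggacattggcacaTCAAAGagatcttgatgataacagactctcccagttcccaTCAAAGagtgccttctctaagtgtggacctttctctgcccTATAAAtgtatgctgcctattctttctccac
Defa23: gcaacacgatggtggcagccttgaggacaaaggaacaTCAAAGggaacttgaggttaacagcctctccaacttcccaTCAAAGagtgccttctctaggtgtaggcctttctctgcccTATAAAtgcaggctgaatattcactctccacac

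The Defa22 promoter held TATAAA 31 bases before the start and TCAAAG 111 and 71 bases before it. In 300-base promoters of the whole table, from 250 bases before to 50 after the start, TATAAA was found on either strand in 13.6% and CTTTGA or its complement in 16%, with 1.73% holding the latter at least at 2 places. Defa2 and Defa23 held the same motifs in the same number. Of the start sites listed for Mmp7, the upstream one had TATAAA at 2 places and CTTTGA at 1. No match to either motif was found for Lyz1, Ang4 or Itln1. The 150 bases of Defa21 were identical to those of Defa22, those of Defa2 and Defa20 differed at 5 bases, and those of Gm15308 were equal at 95.3% of bases after alignment. Of 13 genes of the locus with a promoter and detected in at least 5 cells, these 4 had r with Defa22 between 0.87 and 0.94. The 9 others were equal to Defa22 at 62.7% to 81.3% of bases and had r between 0.33 and 0.63. Without cells 9 and 56, a choice made after the values were seen, the ranges were 0.86 to 0.95 and 0.47 to 0.83, so that the distance between them rested in large part on these cells. The 13 genes are copies of each other and are not independent, and whether promoter sequence had a part in the pattern was not tested.

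**Figure D4:**
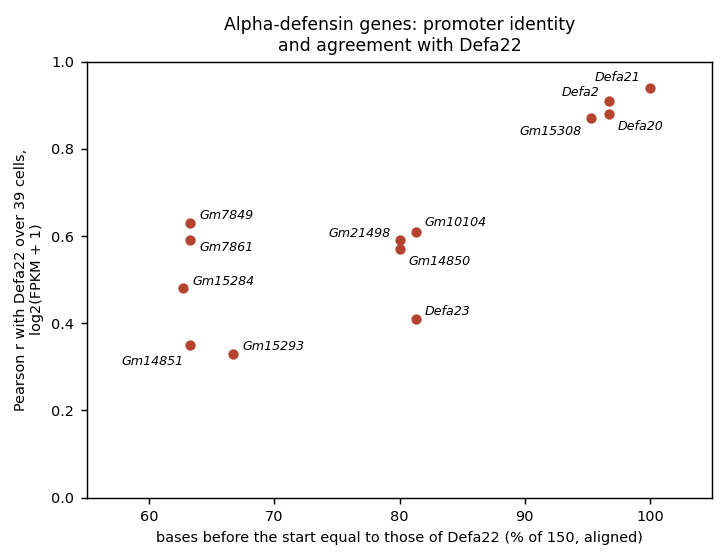
Pearson r with Defa22 over the 39 cells (vertical axis) against the share of the 150 bases before the start that equal those of Defa22 after alignment (horizontal axis, %), for 13 alpha-defensin genes (points). Defa21, Defa2, Defa20 and Gm15308 lie at the upper right, with r of 0.87 or more, and the other 9 lie at 0.63 or less.

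The 10 genes outside the lists whose levels were most like the mean log2 level of the 7 members were all rows of the same locus. They were Gm7849 (r = 0.76), Gm15284 (0.70), Gm7861 (0.69), Gm10104 (0.66), Gm21498 (0.65), Gm14850 (0.64) and the second copies of Gm7849 (0.75), Gm7861 (0.69), Gm21498 (0.65) and Gm14850 (0.65). RefSeq now names these genes Defa42, Defa30, Defa43, Defa35, Defa36 and Defa37 in the order given. The mean includes Defa17, Defa22 and Defa24, which lie in the same locus, so the ranking is not independent of it. Of the windows of Defa24, 26.5% also occur in Defa30, as do 25.6% of those of Defa17. Defa22 shares 3.24% with Defa35 and 2.16% each with Defa36 and Defa37. No window of these members was found in Defa42 or Defa43. The rows of Gm7849 and Gm7861 overlap, as do those of Gm21498 and Gm14850. The part of shared reads in this ranking was not tested. Among the 8656 genes at 1 FPKM or more in at least 5 cells, none outside the locus and the lists exceeded r = 0.55 over the 39 cells.

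Other Paneth cell products varied in how widely they were seen. Of 15 such genes in the table, 9 were detected in a cell and 5 in at least 5 cells, while Reg3a, Habp2, Pnliprp2, Ang2, Ang5 and Ang6 were at 0 throughout. Mptx2, a pentraxin of Paneth cells, was detected in 10 cells, with 731 FPKM in cell 56 and 290.3 in cell 96. Pla2g2a, a secreted antibacterial phospholipase, was detected in 4 cells, with 160.2 FPKM in cell 63 and 143 in cell 56. Spink4 was detected in 27 cells with a median of 12.8 FPKM, and Reg3g in 15. The r of these genes with the mean of the 7 members was 0.50 for Mptx2, 0.47 for Spink4, 0.46 for Pla2g2a, 0.45 for Mptx1, 0.29 for Reg4, 0.08 for Clps, -0.08 for Reg3g, -0.16 for Reg3b and -0.18 for Ang. Reg3g, an antibacterial lectin also made by enterocytes, was at 0 in cells 9, 56 and 63 and highest in cell 51, at 2660.5 FPKM.

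Of 6 transcription factors of secretory cells, 5 were detected in a cell and 2 in at least 5 cells. Sox9, a transcription factor of the crypt base that Paneth cells require, was detected in 38 cells with a median of 38.5 FPKM and had r = 0.10 with the members. Xbp1, a factor of the secretory machinery, was detected in 19 cells (r = 0.28). Atoh1, which commits cells to the secretory lineage, was detected in 4 cells at up to 9.63 FPKM, Spdef in 3 and Gfi1 in none. Of the ligands by which Paneth cells support stem cells, Wnt3 was detected in 4 cells, with 78.3 FPKM in cell 22 and 58.2 in cell 63, Dll4 in 4 cells and Dll1 in 9. Egf was at 0 in every cell.

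The 7 cells with a very high member differed in the markers of other lineages that they held. In cell 63, with the most Lyz1, Mmp7 and Itln1, the 6 goblet cell markers summed to 33556 FPKM against a median of 139.9 over the 39 cells, with Agr2 at 23329, Tff3 at 9579 and the mucin Muc2 at 387 FPKM. Of these 6 markers, 4 were detected in cell 63, while Zg16 was at 0 and Clca1 at 0.570 FPKM. Cell 63 also held the highest Reg4 (4547 FPKM) and Spink4 (7773 FPKM). In cell 56, with the most Defa24, the goblet markers summed to 41.9 FPKM, tuft and enteroendocrine markers to 0 and enterocyte markers to 55.6 FPKM. Of the 6 stem cell markers, 1 was detected in cell 56, Olfm4 at 1515 FPKM, and Lgr5 stood at 0.545 FPKM. All 4 proliferation markers were detected in cells 56 and 63, with sums of 124 and 470.3 FPKM against a median of 389. The epithelial markers summed to 418 FPKM in cell 56, the lowest of any cell, against a median of 2365. Thus the cells with the highest values of different members had unlike marker levels.

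Cell 96 held 5 of the 6 tuft cell markers, with Avil at 1162 and Dclk1 at 222 FPKM, beside 1063 FPKM of Defa24. Cell 9 held 6 of the 6 goblet markers, with Zg16 at 1402 FPKM, and 5 of the 10 enterocyte markers, with Rbp2 at 456 and Alpi at 282 FPKM. Cell 93 held all 6 stem cell markers, with the highest Lgr5 of any cell (82.0 FPKM) and Axin2 at 76.1 FPKM. In cells 86 and 92 the stem cell markers summed to 1196 and 43.5 FPKM and the goblet markers to 189 and 732 FPKM. The part of other cell types' RNA in the members' values was not tested.

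**Figure D5:**
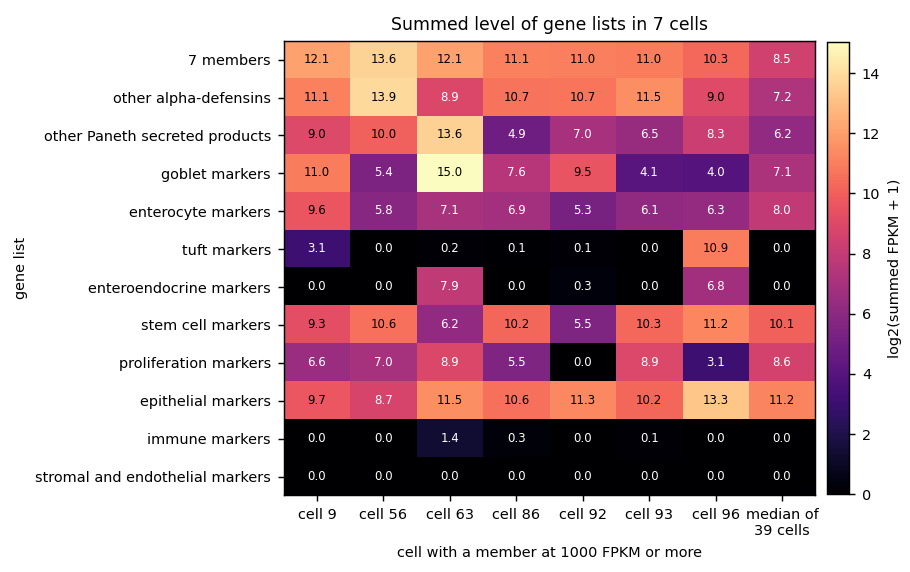
Summed level of each gene list (rows), as log2(summed FPKM + 1), in the 7 cells with a member at 1000 FPKM or more, beside the median over all 39 cells (last column). Goblet markers are highest in cell 63, tuft markers in cell 96, and immune and stromal markers are at or near 0 throughout.

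Over all 39 cells, the mean log2 level of the other Paneth secreted products had r = 0.56 with that of the 7 members, or 0.30 without the pair of cells farthest from its median. This list includes Reg4 and Spink4, both highest in cell 63, where the goblet markers also had their highest sum. The mean log2 level of the secretory transcription factors had r = 0.41, or 0.39 without the pair of cells farthest from its own median. The mean of the goblet markers had r = 0.40, that of the stem cell markers -0.10, that of the enterocyte markers -0.24 and that of the proliferation markers -0.14. Of the other marker lists, the immune markers had r = 0.39, the enteroendocrine markers 0.12, the Paneth niche ligands 0.05, the tuft markers 0.01 and the epithelial markers -0.20. Without the pair of cells farthest from each list's own median, r was 0.29 for the goblet markers, 0.19 for the immune markers and -0.26 for the niche ligands. The immune value came mainly from Lyz2 (r = 0.41 alone), since 6 of the 7 immune markers were detected in no cell. Lyz2 was at most 1.58 FPKM, and 16.1% of the windows of the member Lyz1 occur in it. The mean log2 level of the other genes named Defa had r = 0.91 with the 3 alpha-defensin members, which share sequence or position with some of them, and 0.59 with the 4 other members, or 0.49 without the pair of cells farthest from its median.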

How the data were processed

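Single-cell RNA sequencing of 39 tdTomato-positive, Sca1-negative cells was analysed. According to the paper's methods, cells were captured on a C1 chip, amplified with the SMARTer kit and made into Nextera XT libraries that were pooled for paired-end sequencing. The submitters' processing notes name bcl2fastq 1.8.4, TopHat2 2.0.14 and the builds mm10 and GRCm38, and the program that gave expression values is not given in the sources used here. The authors deposited FPKM values, scaled to the total of each cell and to transcript length, and estimated counts that were not normalized. FPKM values were used as deposited, and estimated counts for depth and, rounded, for thinning. Without molecular identifiers, counts are not molecules.

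The members and gene lists were chosen with earlier results of these data known. Named genes were the members, the lists, all other rows named Defa and the 10 genes most like the members among those at 1 FPKM or more in at least 5 cells. Outside this rule, Gm21002 and Gm15308 were named as further rows of the locus, with r of 0.91 and 0.87 with Defa22. The pseudocount was 1 FPKM. No model was fitted, no p-value computed and no doublet caller run. Alignments of promoters were global, and transcripts were compared in 50-base windows on both strands. The ranking by correlation was tested on simulated data, in which planted genes followed a known score and no genes shared reads. That test therefore cannot tell how shared reads affected the ranking of the locus rows. Alternatives were other detection limits, thinning, scalings and cells left out. Python 3.11.15, numpy 2.4.6, pandas 2.3.3 and scipy 1.17.1 were used.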

Additional observations from a re-analysis of the deposited data

How the results depend on the processing

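Of 58 alternative values computed for the detection of members, their agreement and their concentration in a cell, 55 stayed close to the value reported, meaning within 1.5 times for counts and shares and within 0.17, the SD over pairs, for the median r. With a limit of 10 FPKM in place of 1 FPKM, Lyz1 was detected in 11 cells and not 28, and 1 cell had no member detected, against 0. With a limit of 10 estimated counts, 1 cell also had no member. Thinning to 600000 counts left out cell 9. The median r of the 21 pairs was 0.30 without cell 56 and 0.40 without cells 9 and 79. Of the 10 genes most like the members, 7 remained with Spearman rho and 7 without cell 56. Chosen after the data were seen, leaving out cells 9 and 56 brought the highest r with Defa22 among genes less alike in promoter from 0.63 to 0.83, and leaving out cell 63 brought r of Lyz1 and Mmp7 from 0.38 to 0.14. No paired analysis was possible because the cells form a single group. Depth limits the low end, where a value of 0 does not show that the RNA was absent, and 1 sample gives no error between animals.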

Other observations

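Values of some members differed with the number in the sample title, whose meaning the labels do not give. The split at cell 60 was chosen after the values were seen, and no test was made. Defa22 was detected in 11 of the 17 cells numbered 60 or higher and in 4 of the 22 numbered below, where its highest level was 31.8 FPKM, in cell 18. Of the 10 cells with 30 FPKM or more of Defa22, 9 were numbered 60 or higher. Defa24 ran from 63.1 to 1397 FPKM with a median of 406 in the former cells, and had a median of 88.0 in the latter, which include its highest level of 8338 FPKM. Ang4 was detected in 9 of the 17 and 4 of the 22 cells, Lyz1 in 15 and 13, Itln1 in 11 and 16, and Mmp7 in 4 and 5. Over the 39 cells, the cell number had r = 0.54 with the mean log2 level of the 3 alpha-defensin members and 0.25 with that of the other 4. Of these 4, Ang4 had r = 0.44, Lyz1 0.24, Itln1 0.11 and Mmp7 -0.01. The part of a technical order of the cells in these values was not tested.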
